A study of Mus musculus with 8 samples.

Results

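Sensory and autonomic neuropeptides and the receptors for tachykinins and galanin were examined in whole mouse bladder. The set was taken by gene symbol and holds 10 genes, namely the peptide precursors Tac1, Calca, Calcb, Vip, Npy, Gal and Adcyap1 and the receptors Tacr1, Tacr2 and Galr2, of 38926 symbols in each count table. All 10 symbols were found. Bladder polyA RNA was sequenced in 8 libraries. In 4 libraries, labelled NeMO, the mice had a partial obstruction of the bladder outlet made in a way that spares the nerves, and in 4 libraries, labelled Sham, they had a sham operation. Strain, age, sex and the time since surgery were not given in the sources used here. Whether the libraries came from separate animals is not stated either, and a p-value here reflects the spread among these libraries, which may be technical. Library totals ran from 27212499 to 36375313 counts. Each library carries a mark in its submitted file name that reads as a batch, though the labels do not say what it stands for, with replicates 1 and 3 of NeMO and 1 to 3 of Sham in batch 1 and the others in batch 2, so batch 2 holds a single Sham library. The genes were chosen by name with earlier results of this comparison known, and Tacr2 and Galr2 had been singled out on their lower counts in NeMO. The NeMO and Sham values of the 10 genes are therefore a description, and the p-values printed with them report the fit and support nothing. The related genes and cell markers below were also listed with earlier results known, and the same holds for their p-values.

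Tachykinins such as substance P, made from Tac1, and calcitonin gene-related peptide (CGRP), made from Calca and Calcb, are released from sensory nerve endings, while vasoactive intestinal peptide (Vip), neuropeptide Y (Npy), galanin (Gal) and PACAP (Adcyap1) are cotransmitters of autonomic and sensory nerves. Their messenger RNA lies mostly in the nerve cell bodies, in dorsal root and pelvic ganglia that are largely outside the bladder wall. Receptor messenger RNA can also be made in cells of the wall. In the detrusor, the muscle of the bladder, the receptor encoded by Tacr2 is known to mediate contraction by tachykinins.

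Transcripts of the receptors Tacr2 and Galr2 were lower in every NeMO library than in any Sham library, about 3-fold to 4-fold by the fit. Among the peptide precursors Vip reached 6.76 CPM and the others at most 1.41 CPM in any library, and Tac1, Gal and Adcyap1 were close to absent. Vip and Npy varied widely within the Sham group, with 1 Sham library far below the other 3. Tacr1 and Calcb overlapped between the groups, with log2 fold changes of −0.25 and −0.08.

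Of the 10 genes, 6 had enough reads to be tested, and Tac1, Calca, Gal and Adcyap1 did not pass the filter on low counts. No tested member passed an adjusted p of 0.05 in edgeR's quasi-likelihood test over 16370 genes, which called 0.0733% of all genes (0.0428% as higher, 0.0305% as lower). With no adjustment, at a p under 0.05 edgeR had 2 members, Tacr2 and Galr2, both lower, against 18.5% of all genes tested (9.14% lower and 9.38% higher). DESeq2's Wald test called the same 2, against 5.82% of all genes (2.5% lower). The 2 groups of 4 values had no overlap for 2 of the 6 tested members, both lower, nor for 8.19% of all genes (3.81% lower). All 6 had a log2 fold change (NeMO minus Sham) below 0, with a median of −1.15, beside a median of −0.01 over all genes tested, of which 51.7% were below 0. These genes were listed with this contrast known, so nothing is read from those shares.

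**Figure D1:**
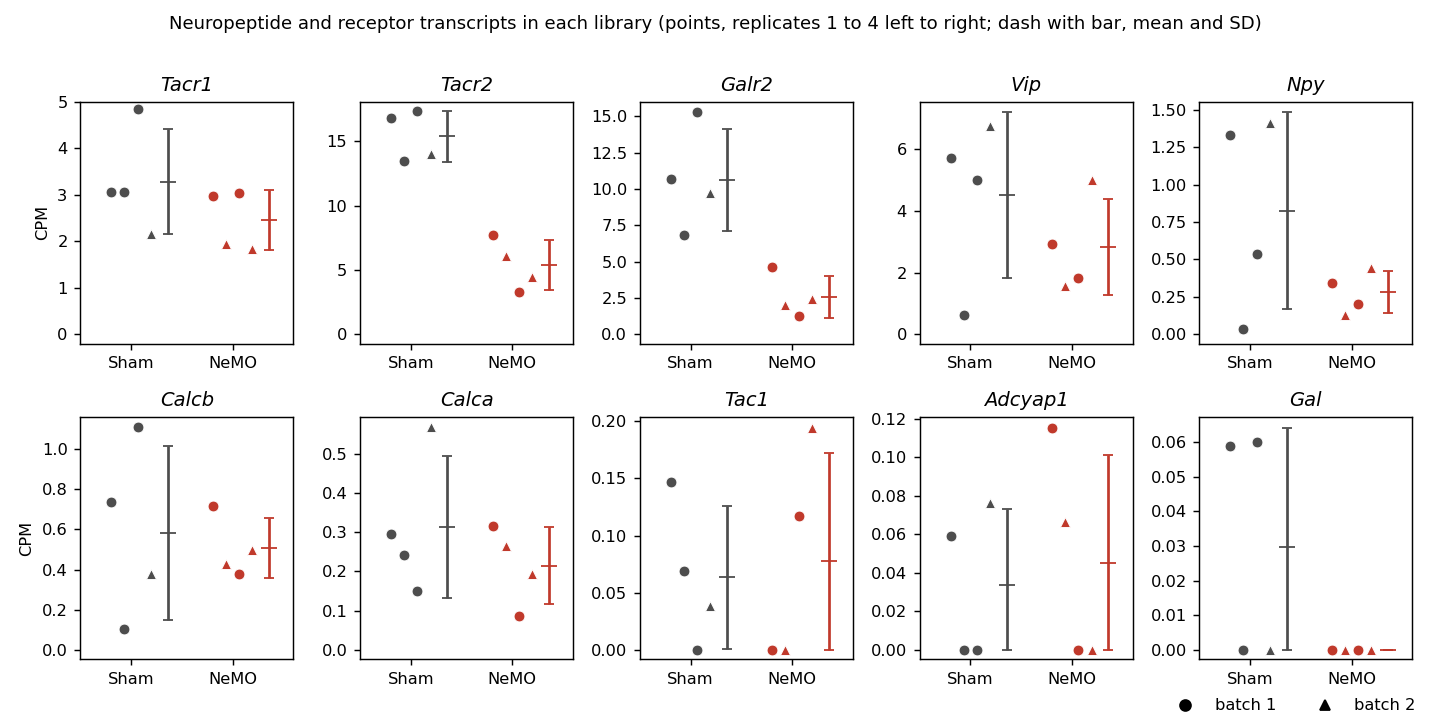
Abundance of the 10 genes (CPM, vertical axes from 0, scaled per gene) in Sham and NeMO libraries. Points are libraries, circles batch 1 and triangles batch 2, and the dash with its bar is the mean and SD (n = 4, the lower bar ends at 0). Tacr2 and Galr2 separate the groups, Vip and Npy show a low Sham replicate 2, and Tac1, Adcyap1 and Gal stay below 0.2 CPM.

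Tacr2 encodes the tachykinin receptor that prefers neurokinin A, a peptide of the Tac1 precursor. It lies on the plus strand of chromosome 10 from 62252438 to 62265990 of mm10 (GENCODE positions). Tacr2 measured 16.8, 13.5, 17.4 and 14.0 CPM (reads of the gene relative to the library's total, TMM-scaled) in Sham replicates 1 to 4, from 368 to 582 reads. The NeMO replicates measured 7.71, 6.09, 3.26 and 4.46 CPM, from 112 to 269 reads. The lowest Sham library stood above the highest NeMO library. Group means were 15.4 ± 1.97 CPM in Sham and 5.38 ± 1.94 in NeMO (mean ± SD, n = 4 each), a log2 fold change of −1.49 (SE 0.26), or 2.81-fold lower. The edgeR adjusted p was 0.0691. Over 17 other settings the adjusted p ran from 4.12e-06 in DESeq2's Wald test to 0.373 in edgeR, where the lowest was 0.0127. Tacr2 stood at rank 61 of the 16370 genes by p, and 108 genes tested had a log2 fold change as low or lower.

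Galr2 encodes a galanin receptor coupled to phospholipase C. It lies on the plus strand of chromosome 11 from 116280939 to 116283938. Its level was 10.7, 6.86, 15.3 and 9.69 CPM in Sham replicates 1 to 4 (198 to 512 reads), and 4.61, 2.02, 1.25 and 2.41 CPM in NeMO replicates 1 to 4 (43 to 161 reads). Here too no NeMO library reached the lowest Sham library. The means were 10.6 ± 3.52 CPM in Sham and 2.57 ± 1.44 in NeMO. The log2 fold change was −1.98 (SE 0.41), or 3.94-fold lower, with an edgeR adjusted p of 0.0899. Over 17 other settings the adjusted p ran from 4.05e-05 in DESeq2's Wald test to 0.425 in edgeR, where the lowest was 0.0170. Only 24 of the 16370 genes tested had a log2 fold change as low or lower. The order of the libraries was alike for the 2 receptors. NeMO replicate 3 held the least and NeMO replicate 1 the most of each among the NeMO libraries, and Sham replicate 3 held the most of each in the Sham group. Galr2 had 0.332 to 0.599 reads per Tacr2 read in NeMO and 0.506 to 0.880 in Sham, ranges that overlap.

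Both receptors kept their direction in each batch. In batch 1 alone the log2 fold change was −1.54 for Tacr2 (edgeR adjusted p = 0.367) and −1.90 for Galr2 (edgeR adjusted p = 0.417). In batch 2 alone, where the lone Sham library is taken to be as variable as the NeMO group, it was −1.40 and −2.12 (edgeR adjusted p = 0.273 and 0.176). In edgeR the pair passed the threshold together only when NeMO replicate 1 was left out. Without NeMO replicate 1 Tacr2 stood at −1.85 (edgeR adjusted p = 0.0127) and Galr2 at −2.61 (edgeR adjusted p = 0.0170), where 3.92% of all genes were called. Without NeMO replicate 3 the values were −1.22 and −1.65, and neither passed (edgeR adjusted p = 0.0658 and 0.150). With no filter on low counts Tacr2 passed (edgeR adjusted p = 0.0332, with 0.693% of all genes called) and Galr2 did not (0.111).

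**Figure D2:**
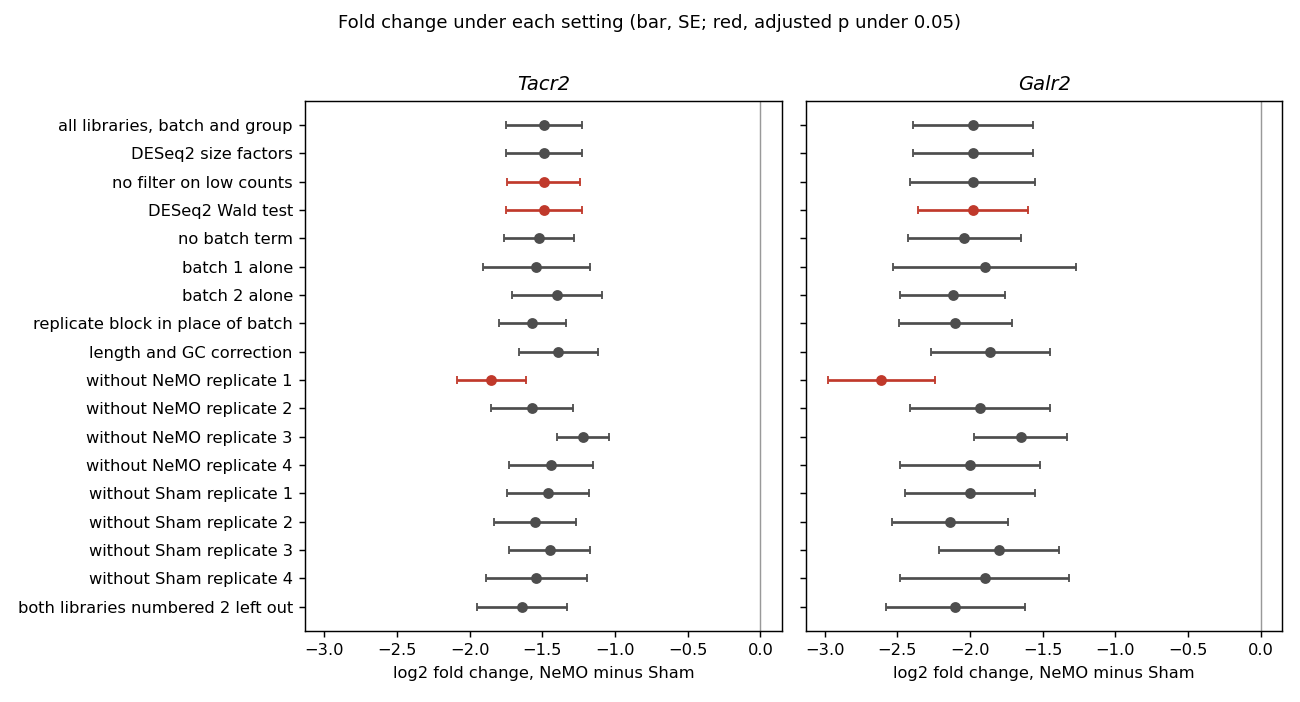
Log2 fold change (NeMO minus Sham, horizontal axis) of Tacr2 and Galr2 under each setting (vertical axis), with bars for the SE and red where the adjusted p is under 0.05. Values run from −1.85 to −1.22 for Tacr2 and from −2.61 to −1.65 for Galr2 when 1 library is left out, and red marks appear under DESeq2, without NeMO replicate 1 and, for Tacr2, without the filter.

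Since these 2 receptor genes were the members whose groups did not overlap, their promoters are shown. Each window is the 250 bases before the RefSeq start (GRCm38.p6, plus strand, chr10:62252188-62252437 for Tacr2 and chr11:116280689-116280938 for Galr2). Capitals mark matches, on either strand, to any of 6 motifs, namely the CRE half-site TGACG, the AP-1 site TGANTCA, the CArG box, the MCAT site GGAATG, the E-box CANNTG and the GC box GGGCGG.
Tacr2: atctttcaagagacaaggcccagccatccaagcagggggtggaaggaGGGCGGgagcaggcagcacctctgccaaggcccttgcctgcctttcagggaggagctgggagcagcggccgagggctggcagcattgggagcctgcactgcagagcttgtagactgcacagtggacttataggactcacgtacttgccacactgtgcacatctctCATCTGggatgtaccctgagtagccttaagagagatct
Galr2: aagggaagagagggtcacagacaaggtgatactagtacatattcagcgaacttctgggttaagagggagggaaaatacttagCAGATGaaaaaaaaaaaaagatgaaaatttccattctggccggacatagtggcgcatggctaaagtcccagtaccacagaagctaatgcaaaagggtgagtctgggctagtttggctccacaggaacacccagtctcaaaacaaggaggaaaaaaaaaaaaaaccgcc
Tacr2 held 1 GC box and 1 E-box, and Galr2 held 1 E-box. An E-box occurs in 66.2% and a GC box in 32.7% of the 32851 promoter windows of that length. The CRE half-site, AP-1 site, MCAT site and CArG box, found in 17.8%, 6.75%, 12.6% and 1.47% of windows, had no match in either window.

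Smooth muscle markers, of the muscle that responds through Tacr2, showed no common direction. Of 9 markers such as Acta2 and Myh11, 4 were higher and 5 lower, their median log2 fold change was −0.03, and 0 passed edgeR's test. Their summed level ran from 28600 to 52700 CPM in NeMO and from 33500 to 45500 in Sham. Several other lists of cell markers leaned to one side. All 5 macrophage markers were lower (median −0.15), and all 5 endothelial (median 0.12) and all 4 fibroblast markers (median 0.21) were higher. Tested lymphocyte markers were split, 2 higher and 2 lower, and 3 of 4 tested skeletal muscle markers were lower. All 5 adipocyte markers were lower (median −1.18, summed level 324 to 1050 CPM in NeMO and 819 to 2370 in Sham), 6 of 7 urothelial markers were lower (median −0.41, 4390 to 6460 against 5340 to 7080 CPM), and 4 of 5 tested mast cell markers were higher (median 1.77, 43.3 to 80.3 against 33.8 to 49.5 CPM). Kit, the lower mast cell marker (log2 fold change −0.74), was also the most abundant and holds much of that sum. With Kit the ranges overlapped. Without Kit, left out here with the values known, they were 17.2 to 62.1 CPM in NeMO and 8.24 to 12.0 in Sham, with no overlap. Without their most abundant gene, adipocyte markers (122 to 650 CPM in NeMO, 403 to 1480 in Sham) still overlapped. So did urothelial markers (3240 to 4780 CPM in NeMO, 3890 to 4990 in Sham). None of these markers passed edgeR's adjusted threshold. DESeq2, which called 5.82% of all genes tested, called 4 mast cell markers (Cpa3, Cma1, Mcpt4 and Tpsb2) and 4 urothelial markers (Upk1a, Upk2, Upk3a and Krt20). It also called 2 adipocyte markers (Cfd and Fabp4) and 0 of the smooth muscle markers. The 4 mast cell genes and Fabp4 had no overlap between the groups, as did 8.19% of all genes tested. The part of these cells in the receptor values was not tested. In whole tissue, fewer cells of a type and less RNA per cell cannot be told apart. Markers of prostate and seminal vesicle were near 0 in all libraries.

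Tacr1, the receptor that prefers substance P, is on chromosome 6 (82402334 to 82560104, plus strand). It measured 3.06, 3.05, 4.85 and 2.16 CPM in Sham and 2.98, 1.95, 3.03 and 1.83 CPM in NeMO (57 to 162 and 59 to 104 reads). The groups overlapped, with a log2 fold change of −0.25 (SE 0.23, edgeR adjusted p = 0.592). Per kilobase of the longest coding transcript, Tacr2 had 6.84 CPM on average in Sham and Tacr1 0.653. In NeMO these levels were 2.38 and 0.487. On that scale Tacr2 was the most abundant member in 6 of 8 libraries.

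Vip encodes vasoactive intestinal peptide, a relaxant of smooth muscle, and had the highest mean level per kilobase of the precursors (2.96 CPM in Sham and 1.85 in NeMO). It lies on chromosome 10 (5639218 to 5647617, plus strand). Sham replicates 1 to 4 held 5.71, 0.623, 5.0 and 6.76 CPM, and NeMO replicates 1 to 4 held 2.92, 1.56, 1.84 and 5.01 CPM. Sham replicate 2, with 18 reads, was the lowest of all libraries, and the other 3 Sham libraries (167 to 194 reads) lay near or above the highest NeMO library. The log2 fold change was −0.81 (SE 0.65, edgeR adjusted p = 0.548), and −1.11 (SE 0.38, edgeR adjusted p = 0.246) without Sham replicate 2.

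Npy, the precursor of neuropeptide Y, a cotransmitter of sympathetic nerves, lies on chromosome 6 (49822710 to 49829507, plus strand). It measured 1.33, 0.0346, 0.539 and 1.41 CPM in Sham, where replicate 2 had 1 read and the others 18 to 45. The NeMO libraries measured 0.344, 0.132, 0.204 and 0.443 CPM, from 4 to 16 reads. Each NeMO library thus lay below 3 of the Sham libraries and above the fourth. The log2 fold change was −1.63 (SE 0.80, edgeR adjusted p = 0.313). Without Sham replicate 2 it was −1.96 (SE 0.54, edgeR adjusted p = 0.198), with Sham replicate 1 left out it was −1.11, and DESeq2 gave no adjusted p for this gene.

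General neuron markers were lowest in much the same libraries. Of 11 general neuron markers, all tested, 10 were lowest in replicate 2 among the Sham libraries and 8 were lowest in replicate 2 among the NeMO libraries, while over all genes tested those shares were 20.5% and 24.6%. Uchl1 was an exception, with its highest NeMO value in replicate 2. Of 7 tested autonomic markers 4 were lowest in replicate 2 of each group. Sham replicate 2 held the lowest Sham value of 4 of 6 sensory and 2 of 7 Schwann cell markers, and NeMO replicate 2 held the lowest NeMO value of 0 of either list. Vip and Npy were also lowest in those 2 libraries of their groups, and 5 of the 6 tested members, all but Tacr1, were lowest in replicate 2 among the Sham libraries, against 2 of 6 among the NeMO libraries. Snap25, a synaptic vesicle fusion protein chosen here after its values were seen, measured 0.727 CPM in Sham replicate 2 against 3.41 to 4.33 in the other Sham libraries, and 0.762 CPM in NeMO replicate 2. The nicotinic receptor gene Chrna3, also chosen after its values were seen, had 3 reads in Sham replicate 2 and 30 to 64 in the other Sham libraries. The 3 general markers with the most reads were Uchl1 (264 ± 70.5 CPM in NeMO and 334 ± 38.5 in Sham), Stmn2 (14.5 ± 8.04 and 19 ± 1.15) and Prph (4.52 ± 1.71 and 6.95 ± 3.43). Apart from Uchl1 the general markers summed to 22.2 to 49.9 CPM in NeMO and 27.4 to 66.5 in Sham, with the Sham minimum in replicate 2. Between the groups, 10 of 11 general neuron markers were lower in NeMO (median log2 fold change −0.66), as were 6 of 7 Schwann cell markers (median −0.43) and 5 of 6 tested sensory markers (median −0.25), and 0 of them passed in edgeR. DESeq2 called 1 of these, Uchl1, beside 5.82% of all genes tested. Uchl1 was far more abundant than the other general markers and did not follow most of them in Sham replicate 2. There its centred log2 CPM was 0.28, and that of Snap25 −1.37. How much of the Uchl1 signal comes from nerve was not tested. The higher sensory marker, Trpa1, named after its values were seen, had a log2 fold change of 2.40 (SE 1.23, edgeR adjusted p = 0.341). Its reads ran from 1 to 107 in NeMO libraries and from 0 to 13 in Sham libraries. The part of nerve content in the Vip and Npy values was not tested. With both libraries numbered 2 left out, a choice made after the values were seen, the log2 fold change was −0.92 for Vip (SE 0.27, edgeR adjusted p = 0.214) and −1.72 for Npy (SE 0.50, edgeR adjusted p = 0.210), and 0 members passed in edgeR, which called 0.164% of all genes. Without adjustment 4 members had a p under 0.05 in that edgeR fit, as did 15.4% of all genes.

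**Figure D3:**
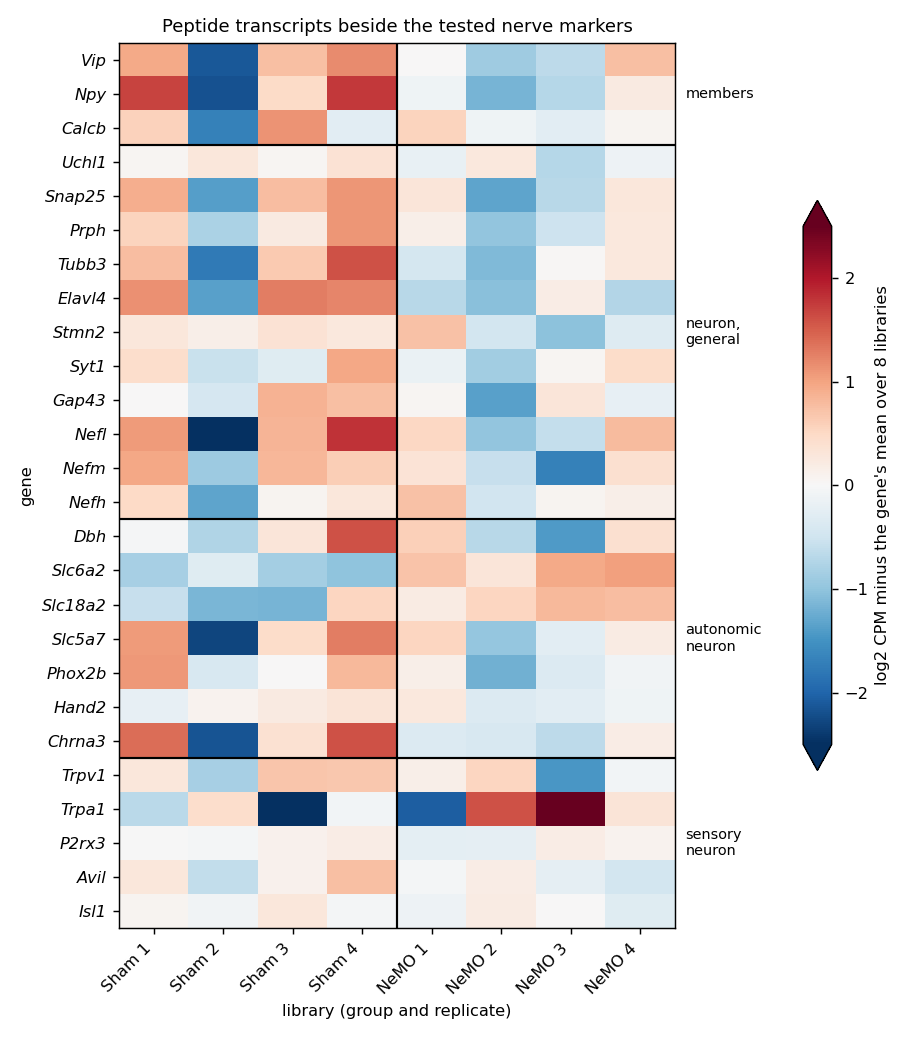
Log2 CPM minus the gene's mean over the 8 libraries (colour) for Vip, Npy, Calcb and the tested nerve markers but 1 (vertical axis) in each library (horizontal axis). Blue runs down the column of Sham replicate 2 for Vip (−2.12), Npy (−2.17) and most general neuron markers, whereas Slc6a2 is higher in each NeMO library than in any Sham library.

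The autonomic list did not move as one. Of 11 autonomic markers in the files 7 were tested, 2 higher and 5 lower, and their median log2 fold change was −0.66. The marker that passed was Slc6a2, the noradrenaline transporter, at 7.89 ± 1.84 CPM in Sham and 22.4 ± 4.66 in NeMO. Its log2 fold change was 1.56 (SE 0.20, edgeR adjusted p = 0.0453). It kept its direction but did not pass in edgeR in either batch alone, nor when NeMO replicate 3 or 4, or Sham replicate 1, 3 or 4, was left out (edgeR adjusted p of 0.0765 to 0.264 over those 5 omissions). Npy, which sympathetic nerves release beside noradrenaline, had its values on the other side of 0. Transcripts for the enzymes of noradrenaline synthesis were scarce, with Th at 0 in 6 libraries and at most 0.120 CPM. Dbh was at 0.542 ± 0.343 CPM in NeMO and 0.863 ± 0.686 in Sham. Hand2, a factor of autonomic neurons that other cells of the wall also express, measured 31.1 and 36.2 CPM, and Slc5a7, the choline transporter, 1.08 and 1.70. Of the 10 sensory neuron markers, Scn10a, Prdm12 and Mrgprd had 0 reads in all libraries. Isl1, which had the most reads of that list, measured 8.25 ± 1.28 CPM in NeMO and 8.87 ± 1.05 in Sham. Avil, an actin-binding protein of sensory neurons, measured 1.95 ± 0.378 and 2.45 ± 0.930 CPM.

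Calca and Calcb encode the α and β forms of CGRP, and Calca also encodes calcitonin, which a count per gene does not separate. The 2 genes are neighbours on chromosome 7, Calca on the minus strand (114631478 to 114636357) and Calcb on the plus strand (114718643 to 114723365). They share sequence, so the longest run common to their transcripts is shown, 61 bases that lie wholly in the coding sequence of both (bases 381 to 441 of Calca and 362 to 422 of Calcb in GENCODE transcripts).
Calca and Calcb: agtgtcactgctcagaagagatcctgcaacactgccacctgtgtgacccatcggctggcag
Reads that fall within this run cannot be assigned to either gene. Of all 50-base words in the longest coding transcript, 1.27% of those of Calca and 1.2% of those of Calcb also occurred in the other gene. Tacr1 shared 1.51% of its words, with many genes. No 50-base word of Tacr2, Galr2, Vip, Npy, Tac1, Gal or Adcyap1 occurred in a transcript of another gene. In GENCODE no exon of the 10 genes overlapped an exon of another gene.

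Calcb was low and showed no separation, at 0.736, 0.104, 1.11 and 0.380 CPM in Sham and 0.717, 0.430, 0.379 and 0.498 CPM in NeMO. Sham replicates 2 and 3 held the lowest value, from 3 reads, and the highest, from 37. Its log2 fold change of −0.08 (SE 0.62, edgeR adjusted p = 0.961) took the other sign without Sham replicate 3 (0.33) or NeMO replicate 3 (0.20). Calca did not pass the filter and had 5 to 15 reads in Sham libraries and 3 to 11 in NeMO libraries, with means of 0.314 ± 0.181 and 0.215 ± 0.0988 CPM.

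The remaining precursors were at the limit of detection. Tac1, the precursor of substance P and neurokinin A (chromosome 6, 7554879 to 7565834, plus strand), had 5, 2, 0 and 1 reads in Sham replicates 1 to 4 and 0, 0, 4 and 7 in NeMO replicates 1 to 4. Adcyap1 (chromosome 17, 93199017 to 93206537, plus strand) had 4 reads over the Sham libraries and 6 over the NeMO libraries, and was at 0 in 4 of 8. Gal (chromosome 19, 3409915 to 3414544, minus strand) had 2 reads each in Sham replicates 1 and 3 and 0 in the other 6 libraries. A count of 0 allows up to 3 reads, or 0.0830 to 0.114 CPM depending on the library, and covers counting error only. A group difference in these 3 genes was not detectable at this depth.

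Transcripts of the other receptors for these peptides were examined next, from a list of 19 receptors and partner proteins. Of these, 18 were in the files and 14 were tested. None passed the adjusted threshold in edgeR or DESeq2. An unadjusted edgeR p under 0.05 was reached by 1 higher and 1 lower gene, beside 9.38% and 9.14% of all genes tested. The list had 4 values above 0 and 10 below, with a median log2 fold change of −0.08. The shared CGRP receptor subunit Calcrl was at 62.9 ± 15.8 CPM in NeMO against 60.6 ± 11.1 in Sham (0.13, SE 0.16), where replicate 1 stood apart at 77.0 CPM, and its partner Ramp1, which makes it a CGRP receptor, 4.39 ± 1.18 and 4.85 ± 1.02 CPM (−0.05, SE 0.22). The VIP receptors Vipr1 (−0.10, SE 0.14) and Vipr2 (−0.03, SE 0.53) were near 0. Adcyap1r1, the receptor that prefers PACAP, was at 22.2 to 35.7 CPM in NeMO and 38.4 to 44.4 in Sham, without overlap (−0.51, SE 0.16, edgeR adjusted p = 0.165). Npy1r, a receptor for neuropeptide Y on smooth muscle, measured 48.1 ± 22.4 against 85.2 ± 28.6 CPM (−0.73, SE 0.44), Npy4r 49.9 ± 20.2 against 83.3 ± 29.1 (−0.81, SE 0.36) and Npy2r 0.383 ± 0.173 against 0.915 ± 0.523 (−0.77, SE 0.51). Npy6r, named after its values were seen, lay on the other side at 41.5 ± 6.95 against 30.0 ± 12.3 CPM (0.48, SE 0.29, edgeR adjusted p = 0.427). Each pair of ranges overlapped. Of Npy1r words of 50 bases 3.32% occurred in other genes, so its reads are in small part uncertain. Tacr3, the receptor that prefers neurokinin B, was at 0.388 ± 0.306 and 0.608 ± 0.253 CPM (−0.47, SE 0.57), and Galr1 had 0 reads in all libraries. Mrgprb2, a mast cell receptor that substance P activates, measured 0.492 ± 0.187 CPM in Sham and 0.938 ± 0.284 in NeMO (1.06, SE 0.41, edgeR adjusted p = 0.217), beside the mast cell markers that were higher.

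Among 29 other neuropeptide precursors 9 were tested and 10 had 0 reads in all libraries. None passed in edgeR, where 1 gene, lower in NeMO, had an unadjusted p under 0.05, and DESeq2 called 1 as lower. Over all genes tested those shares were 9.14% and 2.5%. The DESeq2 call was Cck, which encodes cholecystokinin, at 0.495 to 2.24 CPM in NeMO, below its 3.15 to 4.07 CPM in Sham (−1.29, SE 0.41, edgeR adjusted p = 0.160). Penk, the precursor of enkephalins, was at 21.4 ± 17.8 CPM in NeMO and 13.4 ± 3.59 in Sham (0.69, SE 0.59). Its exons overlap those of another gene, and since the strand setting is not given in the sources used here, its reads are uncertain. Nts (0.45, SE 0.53) and Crh (−1.48, SE 1.12) had wide errors.

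Enzymes that make and degrade peptides held the sole related gene past edgeR's threshold. Of 14 genes of peptide processing and dense core vesicles 11 were tested, with 0 higher and 1 lower in edgeR, and the median log2 fold change was −0.49. Without adjustment, 1 higher and 3 lower genes had an edgeR p under 0.05, beside 9.38% and 9.14% of all genes tested. Cpe, the carboxypeptidase that trims peptide precursors, fell in NeMO, to 183 ± 7.66 CPM against 334 ± 35.5 in Sham (−0.89, SE 0.09, edgeR adjusted p = 0.0175), and passed in edgeR neither without NeMO replicate 4, nor without replicate 1 or 4 of Sham, nor in a batch alone. Qpct, which forms the pyroglutamate end of some peptides and was named after its values were seen, measured 9.99 to 13.3 CPM in NeMO, below its 17.3 to 19.2 CPM in Sham (−0.57, SE 0.12, edgeR adjusted p = 0.0867). DESeq2 called 2 genes of this list, Cpe and Qpct (adjusted p = 0.00243), beside 5.82% of all genes tested. Qpct also passed in edgeR without NeMO replicate 1, where 3.92% of all genes were called. None of 10 peptide-degrading enzymes passed in edgeR or DESeq2, and their median log2 fold change was 0.02. An unadjusted edgeR p under 0.05 was reached by 3 of them, all higher, beside 9.38% of all genes tested that were higher at that p. The endothelin-converting enzyme gene Ece2 was at 11 ± 2.25 against 7.78 ± 0.639 CPM (0.53, SE 0.17) and Ace, the angiotensin-converting enzyme, which also cleaves substance P, at 32.3 ± 11.3 against 20.1 ± 2.45 (0.65, SE 0.25). Lnpep (0.33, SE 0.14) and Fap (0.99, SE 0.44) were the other 2 with the smallest p. Exons of Ece2 and Ace also overlap those of other genes.

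**Figure D4:**
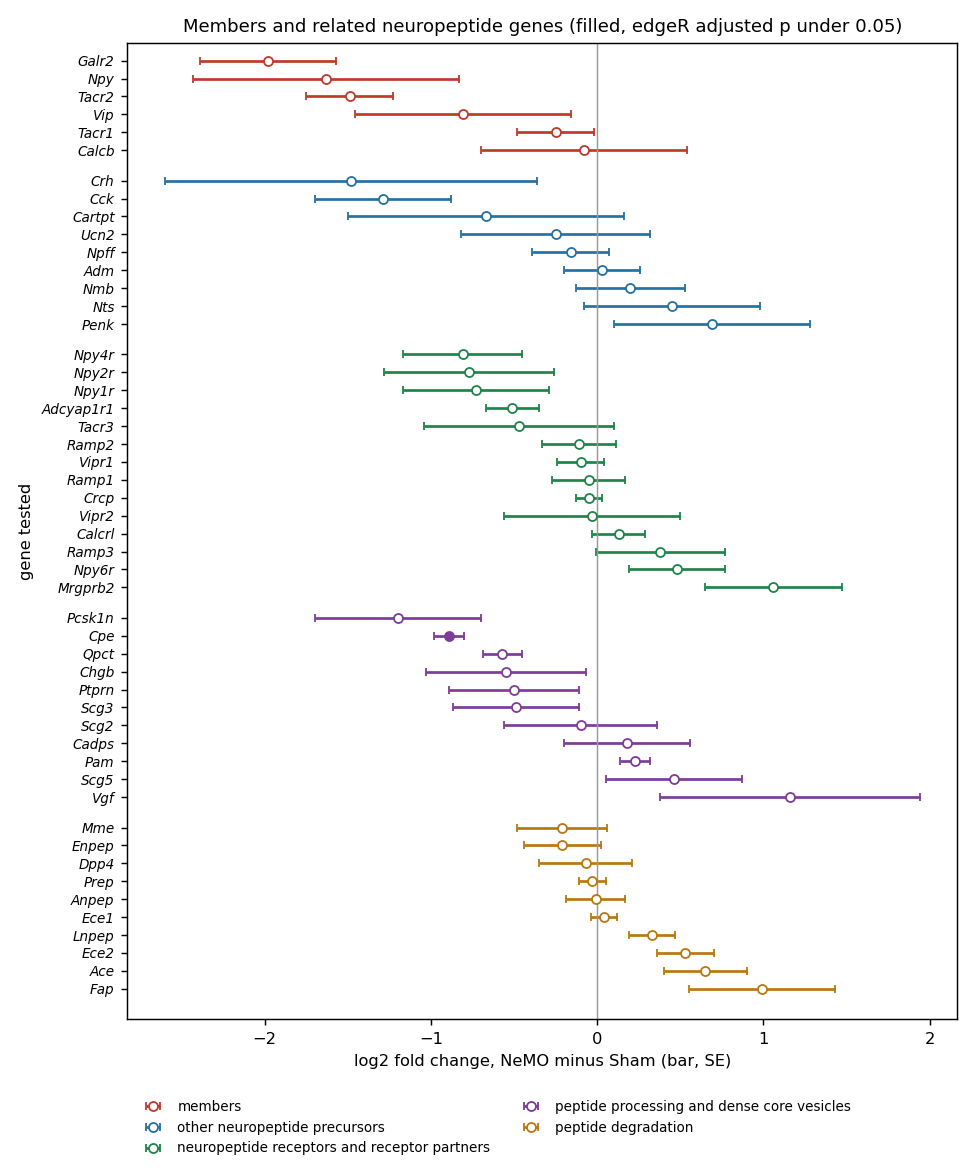
Log2 fold change (NeMO minus Sham, horizontal axis, bars for the SE) of the 6 tested members and the tested genes of the 4 related lists (vertical axis, coloured by list). The only filled point, past the adjusted threshold in edgeR, is Cpe at −0.89. The members Galr2 at −1.98, Npy at −1.63 and Tacr2 at −1.49 lie to its left, as do related genes such as Crh (−1.48) and Cck (−1.29).

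The genes whose pattern over the 8 libraries was most like that of a member were named for Galr2 and Vip, the 2 most variable of the members with a mean of at least 1 CPM. Likeness was the root mean square difference of log2 CPM after centring each gene. For Galr2 the nearest were 4732418A04Rik (0.228), Mmp9, a matrix metalloproteinase (0.290), and 3425401B19Rik (0.313), where the median over all genes was 1.21. Mmp9 averaged 34.7 CPM in Sham against 9.60 in NeMO (−1.86, SE 0.43, edgeR adjusted p = 0.118). For Vip the nearest were Pnma2 (0.268), Htr3a, a subunit of a serotonin-gated channel (0.272), and Cplx1, a synaptic protein (0.301), where the median was 1.10. Htr3a had 0.554 to 8.05 CPM in Sham and 1.32 to 3.85 in NeMO. With 8 libraries and 16370 genes some close matches are certain, and the values are a description.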

How the data were processed

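Read counts per gene symbol, 1 table per library, are used as the authors deposited them. Per the submitters' processing notes, Trimmomatic, STAR, featureCounts, DESeq2 and the mm10 build were used. Versions, annotation, strand setting and the handling of multimapped reads were not given in the sources used here. Per the labels' protocols, polyA RNA went into a directional single-end library. A directional kit keeps strand, but whether counting used it is unknown.

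The main test used edgeR 4.0.16, and DESeq2 1.42.0 was an alternative, both in R 4.3.3. Genes passing filterByExpr (minimum count 10, minimum total 15) were scaled by TMM and fitted with batch and group, using edgeR's robust quasi-likelihood test, two-sided, with Benjamini-Hochberg adjustment over 16370 genes. The biological coefficient of variation was 0.186. Between replicates of a group, counts differed by more than sampling noise in every pair (chi-square per degree of freedom 20.8 to 113).

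The members, related lists, marker lists and rules for named genes were chosen with earlier results of these data known. Named were all members, the related genes past the threshold or else the 4 of smallest p in each list, a fixed set of receptors as values, and the 3 neuron markers of each list with the most reads (1 is not reported here), with Slc6a2, Th and Dbh. Others are marked as chosen after their values were seen. Listed genes without a matching symbol (Galr3, Slc18a3) were not analysed here. Lengths and positions come from GENCODE M21, which matched 98.9% of the genes tested, and promoters from RefSeq on GRCm38.p6, with an entry for 9 of the 10 members. The test was tested on simulated counts. In 3 runs over 16370 genes it found 71.0% of the genes given a log2 change of 1 and 93.2% of those given 2. These shares are of the changed genes that passed the filter. The simulated counts had no batch effect and took each gene's variability from the fit to these libraries. The shares therefore need not hold for the real libraries.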

Additional observations from a re-analysis of the deposited data

Results flagged for a closer look

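Among the genes named, Calcrl was the only one with a library set apart from the other 3 of its group. Sham replicate 1 measured 77.0 CPM and the other Sham libraries 52.9 to 56.9, a gap of 0.838 of the group's whole range, just above Dixon's critical value for 4 samples. Chance alone sets apart about 1 in 20 groups, and 60 were looked at.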

How the results depend on the processing

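Tacr1, Tacr2, Galr2, Vip and Npy kept their direction in the 17 other settings, and Calcb took the other sign in 5 of them, at 0.30 in batch 2 alone, 0.02 with the replicate block, 0.06 after a length and GC correction, 0.20 without NeMO replicate 3 and 0.33 without Sham replicate 3 (range with 1 library left out −0.39 to 0.33). The number of genes past the threshold, 12 with all libraries, was 172 without the filter, 953 with DESeq2, 7 without the batch term, 0 in batch 1 alone, 7 in batch 2 alone and 27 with both libraries numbered 2 left out, and 0 to 652 when 1 library was left out. The number of members past it, 0 otherwise, was 1 without the filter (Tacr2), 2 with DESeq2 and 0 to 2 with 1 library left out, and the related genes numbered 3 with DESeq2, 0 in either batch alone and 0 to 4 with 1 library left out. Why these counts moved was not tested. The replicate numbers were not shown to pair the libraries (correlation of same-numbered deviations −0.00958, 0.0820, 0.0438 and 0.324), and with the replicate block in place of batch 0 genes passed in edgeR (2648 at an unadjusted p under 0.05), among the related genes 0, with Cpe at an edgeR adjusted p of 0.0586 and Slc6a2 at 0.105. Depth limits Tac1, Adcyap1, Gal, Calca, Calcb and Npy, which rest on 0 to 45 reads per library.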
